A study of Homo sapiens with 6 samples.

Results

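Neuropeptide signaling in TC71 cells was examined through 6 genes chosen by name, out of the 60676 in the count table. These were the peptide genes NPY, CCK and GRP, the receptor genes NPY1R and NPY5R, and DPP4, a peptidase that acts on NPY. Neuropeptides are cut from larger precursors, packed in secretory granules and released to act on G protein-coupled receptors of the same or other cells. Ewing sarcoma (EWS) is known for expressing NPY and its Y1 and Y5 receptors, which have been linked to its growth and spread, and CCK and GRP are also counted among the peptide genes of this tumor. DPP4 removes the first residues of NPY, after which the peptide no longer acts on the Y1 receptor but still acts on the Y5 receptor.

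TC71, an established EWS cell line, carried a lentiviral construct with a doxycycline (Dox)-inducible shRNA, either non-targeting (shNTC) or against EHD1 (shEHD1), a protein that returns endocytosed receptors to the cell surface. Both groups received 0.5 µg/ml Dox over 3 days, and 3 libraries of each were sequenced. The lines were selected with puromycin as polyclonal pools, and the labels say neither which EHD1 shRNA was used nor whether the libraries came from separate cultures, so p-values measure the spread between these libraries, which may be technical. Libraries of cells without Dox were not analysed here, so an effect of Dox itself, which both groups share, cannot be seen. For the same reason, a difference between the shNTC and shEHD1 lines from before Dox cannot be told apart from the loss of EHD1. Nor can an effect of the shRNA on other transcripts, and this holds for every change given below.

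Total counts per library ran from 22711235 to 30582187. EHD1 counts were 713, 775 and 589 in shNTC+Dox against 215, 175 and 290 in shEHD1+Dox, which left 29.6% of the transcript (log2 fold change -1.76, SE 0.12, edgeR adjusted p = 1.35e-04). All 16 genes of an EWS identity list had enough counts to be tested, of which CD99 rose by 0.33 and BCL11B (-0.75), STEAP1 (-0.43) and VRK1 (-0.25) fell on the log2 scale. The others did not pass. The share of the list that passed was 25%, against 17.3% of all genes tested, with a median log2 fold change of -0.20. shNTC+Dox replicate 3 stood apart from replicates 1 and 2 (chi-square of counts per degree of freedom 25.6 and 27.1, against 5.56 between replicates 1 and 2). shEHD1+Dox replicate 2 stood apart from its group by less (18.0 and 16.8, against 7.59 between replicates 1 and 3). Values with a library left out are given for NPY1R, NPY5R, GRP, DPP4 and CCK, and for numbers of genes that passed. Other named genes are given with all 6 libraries only. A gene passed at an adjusted p under 0.05 from edgeR's quasi-likelihood test over 16785 genes, and "rose" and "fell" are used for genes that passed. Of all genes tested, 17.3% passed, 8.75% passed with a lower level in shEHD1+Dox, and 2.82% passed with a change of at least 2-fold.

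Of the 6 genes, 4 had enough counts for the test and 2 passed, NPY1R and NPY5R, both lower in shEHD1+Dox and neither by as much as 2-fold. Of all genes tested, 17.3% passed and 8.75% passed with a lower level in shEHD1+Dox. The call of NPY1R held under every alternative setting of the analysis, whereas that of NPY5R was lost in 7 of its alternatives. GRP had the highest level of the 6 per transcript length, although NPY1R had more counts, and it did not pass. NPY was not detected in any library, and CCK was present at a trace level in shNTC+Dox and at 0 in shEHD1+Dox. In bulk RNA, fewer cells expressing a gene and less RNA per cell cannot be told apart.

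The 250 bases before each start site in RefSeq (GRCh38.p14) were read for all 6 genes. The receptor genes lie head to head, but their windows do not adjoin. The window of NPY1R (chr4:163332597-163332846, minus strand) precedes a start site at -11.3 kb from the first base of NPY5R. The core GGAA (or TTCC on the other strand) is the letter string that ETS factors, the family of the EWS fusion protein EWSR1-FLI1, bind, and it is shown in capitals together with CACGTG, which reads alike on both strands, and with CGTCA (or TGACG), part of the cyclic AMP response element. The windows of NPY5R (chr4:163343642-163343891, plus strand) and GRP (chr18:59219908-59220157, plus strand), which hold no annotated exon, are printed whole because they stand for a receptor gene that fell and for the peptide gene with the most counts.
NPY5R: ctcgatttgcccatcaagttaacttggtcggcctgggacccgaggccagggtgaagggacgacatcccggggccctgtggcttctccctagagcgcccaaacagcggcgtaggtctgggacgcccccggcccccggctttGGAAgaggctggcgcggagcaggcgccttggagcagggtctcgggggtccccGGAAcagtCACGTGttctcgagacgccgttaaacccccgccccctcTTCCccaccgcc
GRP: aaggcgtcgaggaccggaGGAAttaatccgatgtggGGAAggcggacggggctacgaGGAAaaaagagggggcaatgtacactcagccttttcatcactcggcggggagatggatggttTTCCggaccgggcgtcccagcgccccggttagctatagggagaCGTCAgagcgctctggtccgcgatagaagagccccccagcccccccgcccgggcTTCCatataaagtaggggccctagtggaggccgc
NPY1R and DPP4 have annotated exons in their windows, and 30 bases around CACGTG are shown for these 2 genes (chr4:163332639-163332668 and chr2:162074413-162074442, both minus strand), because CACGTG was found before both receptor genes and the peptidase gene. In these 2 stretches CACGTG alone is in capitals.
NPY1R: gcgggacgccgtCACGTGatccgggatgag
DPP4: ccctcgcctgtcCACGTGaggttggaggag
GGAA occurred 6 times in the window of NPY1R, a number that 9.14% of 35114 windows reach, and 5 times in that of GRP, which 18.6% reach, against a median of 3. It occurred 3 times for NPY, 2 times for DPP4, 3 times and once in the 2 windows of NPY5R, and once and 5 times in the 2 windows of CCK. CACGTG occurred once each before NPY1R, NPY5R and DPP4 and not before NPY, CCK or GRP, and 6.35% of all windows hold it. CGTCA occurred once each before NPY1R (where 2 of its letters are shared with CACGTG), DPP4 and GRP, and 21.2% of windows hold it. CACGTG was added to the search after these sequences had been seen, and a match describes letters only.

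NPY (ENSG00000122585, chr7:24284188-24291862, plus strand), the gene of neuropeptide Y, had 0 counts in each of the 6 libraries. A count of 0 allows a level of up to 3 counts per library, or 0.0969 to 0.134 CPM (counts scaled to the effective library size after TMM normalization), and covers counting error only. NPY was therefore not detectable at this depth in either group, and no comparison was possible.

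CCK (ENSG00000187094, chr3:42257825-42266185, minus strand) encodes cholecystokinin, a peptide of gut and brain. Its counts were 11, 5 and 12 in shNTC+Dox against 0, 0 and 0 in shEHD1+Dox. All 28 counts thus lay in the control group, and the groups did not overlap. The same held for 39.3% of all genes tested, a set with more counts that does not include CCK. The mean was 0.379 ± 0.182 CPM (SD, n = 3) in shNTC+Dox. With 3 counts per library as the limit of a count of 0, that mean was 3.50 times the limit in shEHD1+Dox. This ratio takes the control counts as free of error, and it was 2.76 without shNTC+Dox replicate 3. The gene had 10 counts in too few libraries to enter the test. In a fit without that filter its edgeR adjusted p was 0.0184 over 31000 genes. CCK entered that fit through its shNTC+Dox counts alone, so this value was not taken as a pass. The exact two-sided permutation p was 0.1, the smallest that 3 libraries against 3 allow. The kit did not keep the strand, and 32.5% of the exon bases of CCK (671 bases) are shared with an antisense RNA gene, ENSG00000281160, which had 2 counts in replicate 3 of each group and 0 elsewhere.

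GRP (ENSG00000134443, chr18:59220158-59230774, plus strand) encodes gastrin-releasing peptide, a growth-promoting peptide of nerves and gut. Its counts were 2653, 2616 and 2090 in shNTC+Dox against 3333, 2289 and 3334 in shEHD1+Dox, or 101, 94.5 and 93.6 CPM against 117, 93.6 and 108 CPM. Replicates 1 and 3 of shEHD1+Dox were above every control library and replicate 2 was marginally below the lowest, so the groups overlapped. The mean was 96.3 ± 3.94 CPM in shNTC+Dox against 106 ± 11.8 CPM in shEHD1+Dox (n = 3 each, SD). The log2 fold change was 0.14 (SE 0.09, 95% interval -0.06 to 0.34, edgeR adjusted p = 0.313), an interval of 0.959- to 1.27-fold. It was 0.22 (adjusted p = 0.0873) without shEHD1+Dox replicate 2 and 0.07 (adjusted p = 0.705) without shEHD1+Dox replicate 1. Per length, as TPM (a transcript level computed from the counts, scaled by exon length and library), GRP read 422 ± 25.4 in shNTC+Dox against 511 ± 42.7 in shEHD1+Dox without overlap. On that scale the median gene was 0.14 (log2) higher in shEHD1+Dox, and relative to it the difference of GRP was again 0.14.

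**Figure D1:**
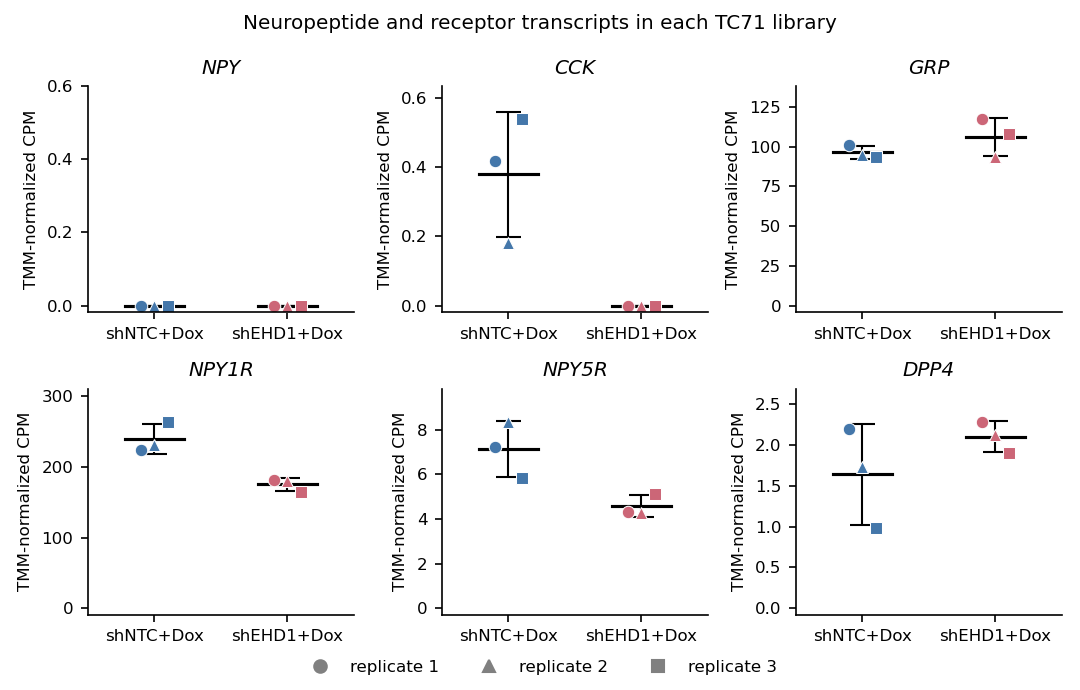
Each point is the TMM-normalized level (CPM, linear axis from 0) of one gene in one library, blue for shNTC+Dox and red for shEHD1+Dox, with the mean as a line and the SD as bars (n = 3 each). The 3 shEHD1+Dox points lie below all shNTC+Dox points for NPY1R (164 to 181 against 223 to 263 CPM), NPY5R (4.29 to 5.14 against 5.82 to 8.34 CPM) and CCK (0 against 0.181 to 0.537 CPM), while GRP and DPP4 overlap and NPY is at 0 throughout.

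NPY1R (ENSG00000164128, chr4:163323962-163344832, minus strand) encodes the Y1 receptor, which couples to inhibitory G proteins and lowers cyclic AMP. Its counts were 5871, 6379 and 5875 in shNTC+Dox against 5146, 4416 and 5087 in shEHD1+Dox, or 223, 230 and 263 CPM against 181, 181 and 164 CPM. Every shEHD1+Dox library was below every control library. NPY1R fell from 239 ± 21.3 to 175 ± 9.38 CPM (SD, n = 3 each), to 73.4% of the control level (95% interval 64.6 to 83.3%). The log2 fold change was -0.45 (SE 0.08, edgeR adjusted p = 0.00734), and the exact permutation p was 0.1. The fall passed under every one of 12 alternatives, which included its sum with NPY5R (given below) and each library left out in turn. With a library left out it ran from -0.50 to -0.37, with edgeR adjusted p-values from 0.00293 to 0.0416.

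NPY5R (ENSG00000164129, chr4:163343892-163351934, plus strand) encodes the Y5 receptor, which is known for its part in feeding. Its counts were 190, 231 and 130 in shNTC+Dox against 123, 105 and 159 in shEHD1+Dox, or 7.22, 8.34 and 5.82 CPM against 4.32, 4.29 and 5.14 CPM. The groups did not overlap, but shNTC+Dox replicate 3 and shEHD1+Dox replicate 3 lay close to each other. NPY5R fell from 7.13 ± 1.26 to 4.58 ± 0.48 CPM (SD, n = 3 each), to 64.3% of the control level (95% interval 48.5 to 85.3%). The log2 fold change was -0.64 (SE 0.18, edgeR adjusted p = 0.0412), close to the threshold, with an exact permutation p of 0.1. The call was lost in the fit without a filter on low counts (adjusted p = 0.0648), with the replicate number as a block (adjusted p = 0.105) and when any one library other than shNTC+Dox replicate 3 was left out (adjusted p from 0.0801 to 0.138). Without shNTC+Dox replicate 3 the log2 fold change was -0.76 (adjusted p = 0.00886), and the Wald test of DESeq2 gave -0.64 (adjusted p = 0.0184).

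NPY1R and NPY5R lie head to head on chromosome 4, transcribed away from each other, with annotated exons that overlap near the 5′ end of both genes. Over all annotated transcripts they share 528 exon bases (chr4:163344305-163344832), 13.3% of the exon length of NPY1R and 15.8% of that of NPY5R, and reads from these bases cannot be told apart without strand. In NPY1R these bases form its most upstream exon, at 0.413 to 0.94 kb from the first base of NPY5R. The RefSeq start site of NPY1R read above lies at -11.3 kb on that scale. Added together, the counts of NPY1R and NPY5R gave an edgeR adjusted p of 0.00603 (log2 fold change -0.45). NPY5R made up only 2.16 to 3.49% of these counts in a library. The sum therefore follows NPY1R and cannot show how the shared reads were divided between the genes. NPY1R had 30.9, 27.6 and 45.2 counts for each NPY5R count in shNTC+Dox against 41.8, 42.1 and 32.0 in shEHD1+Dox, and these ranges overlapped. The log2 count of NPY5R minus that of NPY1R, which does not depend on library scaling, was -5.07 ± 0.37 in shNTC+Dox against -5.25 ± 0.22 in shEHD1+Dox (SD, n = 3 each). The difference of -0.18 had an exact two-sided permutation p of 0.6, where 0.1 is the smallest possible. It was -0.39 without shNTC+Dox replicate 3 and -0.04 without shNTC+Dox replicate 2, so its size is not determined by these libraries. NPY1R and NPY5R made up 2 of the 4 tested genes with groups that did not overlap, against 39.3% of all genes tested and 19.4% in the lower direction.

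**Figure D2:**
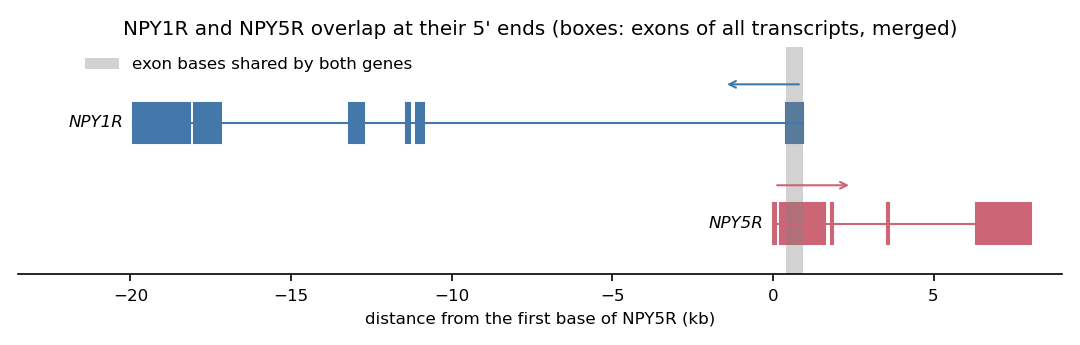
Boxes are the merged exons of NPY1R (upper track, read to the left) and NPY5R (lower track, read to the right), and the x axis is the distance in kb from the first base of NPY5R. The gray band marks the 528 exon bases that both genes share, near the 5′ end of each.

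DPP4 (ENSG00000197635, chr2:161992245-162074394, minus strand) encodes dipeptidyl peptidase 4, a membrane enzyme that is also known as CD26. Its counts were 58, 48 and 22 in shNTC+Dox against 65, 52 and 59 in shEHD1+Dox, or 2.20, 1.73 and 0.985 CPM against 2.28, 2.13 and 1.91 CPM. The groups overlapped, and shNTC+Dox replicate 3 was lowest of all. The mean was 1.64 ± 0.61 CPM in shNTC+Dox against 2.10 ± 0.19 CPM in shEHD1+Dox (n = 3 each, SD). The log2 fold change was 0.35 (SE 0.30, edgeR adjusted p = 0.468), with a 95% interval of 0.791- to 2.06-fold that leaves the direction undetermined. Without shNTC+Dox replicate 3 it was 0.09. Only 1.21% of its exon bases are shared with the antisense gene DPP4-DT, and adding the counts of DPP4-DT gave 0.32.

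**Figure D3:**
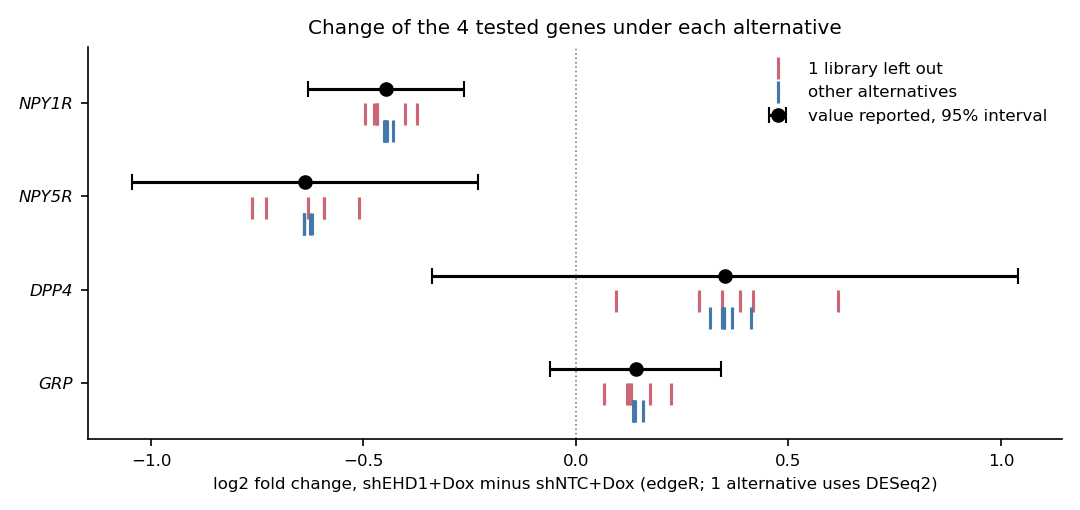
Black points are the log2 fold changes (shEHD1+Dox minus shNTC+Dox) of the 4 tested genes with 95% intervals, red ticks the values with 1 library left out and blue ticks the other alternatives. All ticks of NPY1R and NPY5R are below 0, at -0.50 to -0.37 and -0.76 to -0.51 with a library left out, while the intervals of GRP and DPP4 span 0.

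The replicate spread was set against what counting alone would give, as a coefficient of variation. In shNTC+Dox it was 8.91% for NPY1R against 1.29% from counting, 17.7% for NPY5R against 7.53%, and 37.5% for DPP4 against 16.3%. In shEHD1+Dox it was 5.36% for NPY1R, 10.5% for NPY5R (8.90% from counting) and 8.98% for DPP4 (13.1% from counting). The values of NPY5R and DPP4 in shEHD1+Dox therefore varied about as much as counting error alone would give, whereas those of NPY1R varied more. GRP varied by 4.09% in shNTC+Dox and 11.1% in shEHD1+Dox, against 2.03 and 1.85% from counting.

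Ordered by level per length (TPM), GRP came first in both groups and ranked 293 of 16715 genes in shNTC+Dox. NPY1R followed at 226 ± 16.2 TPM in shNTC+Dox against 183 ± 12.2 TPM in shEHD1+Dox (n = 3 each, SD), rank 610. The level of GRP was 1.87 times that of NPY1R in shNTC+Dox against 2.79 times in shEHD1+Dox, without overlap between the genes in either group. NPY5R, at 8.07 ± 1.49 and 5.70 ± 0.57 TPM, was 28.0 times below NPY1R in shNTC+Dox and 32.1 times below it in shEHD1+Dox. CCK (0.329 to 0.965 TPM) and DPP4 (0.253 to 0.588 TPM) overlapped in shNTC+Dox, and in shEHD1+Dox CCK was at 0 and DPP4 at 0.606 ± 0.053 TPM. TPM used the merged exons of all annotated transcripts, which for the 23 transcripts of DPP4 come to 14432 bases, and a shorter transcript would give a higher value.

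The receptors of the other peptides could not be detected. GRPR and NMBR, the receptors for GRP and the related neuromedin B, and CCKAR and CCKBR, the receptors for CCK and gastrin, each had 0 counts in all 6 libraries, as did NPY2R. Thus GRP was transcribed at a high level without a detectable GRPR transcript, and NPY1R at a high level without a detectable NPY transcript. Of 7 other genes of the CCK and GRP families, only NMB (neuromedin B) was tested, with counts of 141, 150 and 120 in shNTC+Dox against 141, 125 and 168 in shEHD1+Dox. The log2 fold change of NMB was -0.06 (edgeR adjusted p = 0.811), and neither an unadjusted p under 0.05 nor DESeq2 picked it out. Of 10 other genes of the NPY family and related peptidases, 3 were tested and none passed in edgeR. At an unadjusted p under 0.05 there were 2, DPP8 (-0.25, adjusted p = 0.0612) and DPP9 (-0.23, adjusted p = 0.103), both relatives of DPP4 inside the cell, and DPP8 passed in DESeq2. FAP, the membrane peptidase most like DPP4 and its neighbor on chromosome 2, had an edgeR adjusted p of 0.332 (log2 fold change 0.23) and, like DPP4, its lowest count (390) in shNTC+Dox replicate 3.

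Of 23 genes that cut, amidate and pack peptides, 16 were tested, 3 rose, 3 fell and 10 did not pass. The share that passed was 37.5%, against 17.3% of all genes tested, and the median log2 fold change was 0.18 against 0.00 over all genes tested. This list and those below were chosen with earlier results of these data known. Their shares therefore describe the lists only, and no excess over all genes was tested. SCG2, a granin of secretory granules that also yields the peptide secretoneurin, had counts of 860, 872 and 624 in shNTC+Dox against 336, 387 and 433 in shEHD1+Dox. It fell from 30.7 ± 2.47 to 13.9 ± 2.01 CPM (SD, n = 3 each), with an edgeR adjusted p of 7.6e-04 (log2 fold change -1.15, SE 0.12). PCSK2, a convertase that cuts peptide precursors, fell by 0.57 on the log2 scale (adjusted p = 8.35e-04), and PCSK6, a convertase of the same family, fell by 0.37 (adjusted p = 0.0452). Among enzymes that finish the ends of peptides, QPCT, which forms pyroglutamate at the front end, rose by 0.65 (adjusted p = 9.16e-04). CPD, a carboxypeptidase that trims the cut ends, rose by 0.52 (adjusted p = 0.00456), and PAM, which amidates the ends of peptides such as NPY, CCK and GRP, rose by 0.39 (adjusted p = 0.00427).

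Among 33 other neuropeptide genes, 17 had no count in any library and 7 were tested, of which 1 rose and 1 fell. The share that passed was 28.6%, against 17.3% of all genes tested. NTS, the gene of neurotensin, had counts of 43, 39 and 29 in shNTC+Dox against 107, 99 and 121 in shEHD1+Dox, and it rose from 1.45 ± 0.17 to 3.90 ± 0.14 CPM (SD, n = 3 each). All shEHD1+Dox libraries were above all control libraries, where 39.3% of all genes tested had groups that did not overlap in either direction. The log2 fold change of NTS was 1.43 (SE 0.20, edgeR adjusted p = 0.00247). CALCB, which encodes a calcitonin gene-related peptide, fell from 5.49 ± 1.45 to 2.72 ± 0.48 CPM, by 1.01 on the log2 scale (edgeR adjusted p = 0.0226). The median of these 7 genes was 0.07, and 1 in place of 2 passed when any single shEHD1+Dox library was left out. Of 38 other peptide receptor genes, 13 had no count and 10 were tested, and VIPR1, a receptor for vasoactive intestinal peptide, was the one that passed (-0.81, SE 0.17, edgeR adjusted p = 0.0134). Among the 10 tested, 10% passed, against 17.3% of all genes tested, and their median was -0.11. DESeq2 passed 4 of the 10, VIPR1, OPRD1, AVPR1A and AVPR2. In edgeR 0 passed with the replicate block or without shEHD1+Dox replicate 1 or 3. AVPR1A and AVPR2, vasopressin receptors named here after their values were seen, were low, with counts of 26, 44 and 22 against 0, 6 and 13 for AVPR1A and 22, 22 and 27 against 5, 13 and 4 for AVPR2, and missed the threshold in edgeR (adjusted p = 0.0536 and 0.0509).

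Of 25 signaling genes downstream of these receptors, 21 were tested, 3 rose and 2 fell (23.8%, against 17.3% of all genes tested), with a median of -0.05. The G protein subunit genes GNAI3, of the inhibitory class that the NPY receptors use, and GNAQ, of the class that GRP and CCK receptors use, rose by 0.45 (edgeR adjusted p = 0.00264) and 0.27 (adjusted p = 0.0443). Of the adenylyl cyclases, which make cyclic AMP, ADCY6 rose by 0.60 (adjusted p = 0.0352) and ADCY3 fell by 0.53 (adjusted p = 0.00402). GRK6, a kinase that turns off activated receptors, fell by 0.41 (adjusted p = 0.0148). The count of 5 became 3 with the replicate block, and 2 or 3 when any single shEHD1+Dox library or shNTC+Dox replicate 1 was left out. Over the 6 related lists together, 14 of 58 tested genes passed (24.1%, against 17.3% of all genes), 7 in each direction, and 42 of the 136 genes had no count in any library.

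**Figure D4:**
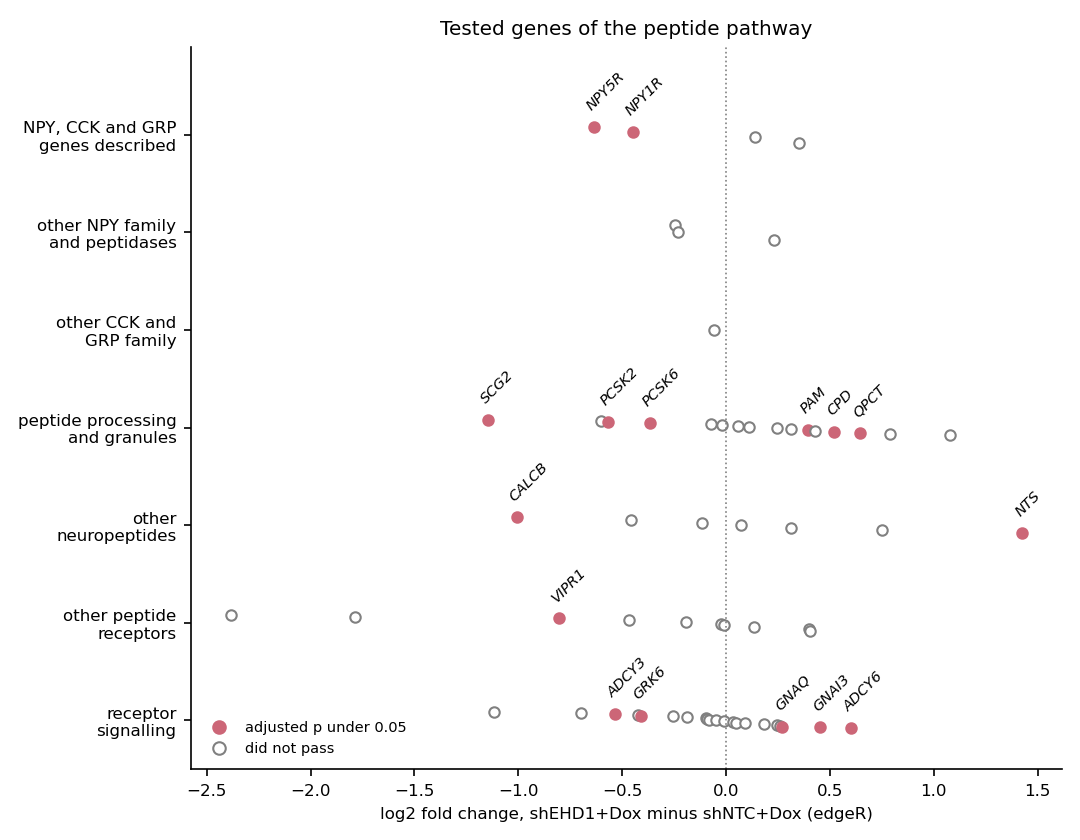
Each circle is a tested gene at its log2 fold change (shEHD1+Dox minus shNTC+Dox, x axis), grouped by list, filled where the edgeR adjusted p was under 0.05. NPY5R (-0.64) and NPY1R (-0.45) are the filled circles of the top group, and the filled circles of the other lists run from -1.15 (SCG2) to 1.43 (NTS) with 7 on each side of 0.

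Protein-coding genes starting within 500 kb were compared, to place the receptor genes among their neighbors. Around NPY1R and NPY5R, 3 such genes were found and 2 were tested, NAF1 (0.07, edgeR adjusted p = 0.511) and TMA16 (0.15, adjusted p = 0.300), so that 0 passed, as also at an unadjusted p under 0.05 and in DESeq2. Near CCK, 7 of 10 neighbors were tested and 4 fell, ZBTB47 (-0.84, adjusted p = 8.35e-04), VIPR1 (-0.81), NKTR (-0.43, adjusted p = 0.00986) and SEC22C (-0.24, adjusted p = 0.0419). Near GRP, 4 of 6 were tested, where LMAN1, a cargo receptor of the early secretory route, rose by 0.41 (adjusted p = 0.00541) and SEC11C, a signal peptidase subunit, fell by 0.37 (adjusted p = 0.0218). Of the neighbors of NPY (2 tested) and DPP4 (3 tested), 0 passed in edgeR, at an unadjusted p under 0.05 or in DESeq2, which gave 1 of them no adjusted p. In all, 1 of 18 tested neighbors rose and 5 fell, where 17.3% of all genes tested passed and 8.75% fell, and these neighbor genes were named after their values were seen.

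The genes whose levels over the 6 libraries were closest to those of each tested gene were found by the root mean square distance of centered log2 CPM, among 13161 genes. For NPY1R these were MREG (distance 0.02), TMEM19 (0.04) and ZDHHC21 (0.04), and for NPY5R they were HYKK (0.06), CKMT1B (0.07, a gene with a near-identical copy and so uncertain) and PADI2 (0.07). For GRP they were ZNF580 (0.01), C10orf88 (0.04) and KCTD1 (0.04), and for DPP4 they were CTSV (0.06), DEPP1 (0.09) and C6orf99 (0.10). Neither receptor gene was among the 3 closest to the other. With 13161 genes and 6 libraries, close matches can arise by chance, and missing the 3 closest says little. Shared regulation was not tested.

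Markers of other cells were read beside these results, as TPM summed over each list. Immune markers came to 5.66 to 9.21 in shNTC+Dox against 4.16 to 8.73 in shEHD1+Dox, with CD3E at 0. Nearly all of that sum was CD68 (mean 7.82 against 6.96 TPM), while PTPRC was at 0.0803 against 0.0154 TPM. Epithelial markers came to 0.347 to 0.754 and 0.448 to 1.04, with KRT5 and KRT14 at 0. Endothelial markers came to 0 and to at most 0.0665, with VWF, KDR and TEK at 0. Of these 14 markers, 2 were tested and 0 passed, also at an unadjusted p under 0.05 and in DESeq2. Fibroblast markers came to 137 to 190 in shNTC+Dox against 265 to 320 in shEHD1+Dox, where 6 of 6 were tested. Most of that difference was COL3A1 (109 against 221 TPM), which rose by 0.89 on the log2 scale of the test, while DCN fell (-1.01) and the other 4 did not pass. Neuronal markers came to 56.0 to 63.7 and 101 to 113, where 4 of 6 were tested and NEFL (0.84) and NEFM (0.79) rose. These sums carry the shift of 0.14 (log2) of the median gene on the TPM scale. Of the tested fibroblast and neuronal markers, 33.3% and 50% passed, against 17.3% of all genes tested. The part of these marker changes in the fall of NPY1R and NPY5R was not tested.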

How the data were processed

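RNA of 6 TC71 libraries, 3 shNTC+Dox and 3 shEHD1+Dox, was sequenced as paired ends from a kit that does not keep strand, and groups were taken from the sample labels. The values the authors deposited were unnormalized gene counts in whole numbers. The study's methods name alignment to hg38 with hisat2 under Ensembl annotation, StringTie and DESeq2, whereas the submitters' processing notes name STAR 2.7.3a and DESeq2, and how reads fitting several genes were counted is not given in the sources used here. All columns of the table were mapped to a sample.

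Genes were kept where 3 or more libraries had 10 counts or more, which left 16785. TMM normalization and the quasi-likelihood test (glmQLFTest after a robust glmQLFit) were run with edgeR 4.0.16 under R 4.3.3, and p-values were adjusted over all genes tested by the Benjamini-Hochberg method. The typical variation between replicates, beyond counting, was 15.0%. Single values were compared by exact two-sided permutation tests. TPM was computed from the counts and the merged exon lengths of GENCODE release 44, where 60357 identifiers (99.5%) were found. Sequences came from RefSeq windows, in which all 6 genes matched. The receptor difference used log2 counts with 0.5 added, and closest genes were sought on log2 CPM with a prior count of 2, among genes averaging 1 CPM or more. The scripts were tested on simulated data.

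Named were the 6 genes, EHD1, 5 receptors, up to 3 rises and 3 falls per list among genes that passed, and the 3 closest genes of each tested gene, with the exceptions said in the text. One marker gene is not reported here. The genes and lists were chosen with earlier results of these data known. Alternatives were DESeq2's size factors, the Wald test in DESeq2 1.42.0, no filter, a filter of 10 counts in all libraries, a block for the replicate number, and each library left out. Sums of overlapping genes were added after seeing the data. No 2 libraries of a group agreed within sampling noise (chi-square per degree of freedom 5.56 or more), and intervals of 0 counts cover counting error only.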

Additional observations from a re-analysis of the deposited data

How the results depend on the processing

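NPY1R kept its direction and its call under all 12 alternatives, and GRP and DPP4 did not pass under any. NPY5R kept its direction under all 11, but its call was lost with no filter on low counts (-0.62), and in 5 of the 6 fits with a library left out, where it ran from -0.73 to -0.51; the sixth, without shNTC+Dox replicate 3, kept the call at -0.76. DPP4 ran from 0.09 to 0.62 and GRP from 0.07 to 0.22 with a library left out. The CCK control mean was 2.76 to 4.41 times the limit of a count of 0 with a library left out. With DESeq2's size factors it was 3.50 times that limit. Apart from the fit without a filter, CCK entered no fit because it failed the filter on low counts, which was also used for DESeq2. NPY had no count to fit.

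The replicate numbers did not pair the libraries, since deviations of same-numbered libraries correlated at 0.072, -0.0593 and -0.0448. With the replicate block, 1766 genes passed in place of 2910, NPY5R was at -0.63 and no longer passed, and NPY1R was at -0.44 (adjusted p = 0.0335); the calls of GRP, DPP4 and EHD1 did not change. Without 1 library, from 1322 to 3616 genes passed (1341 without shEHD1+Dox replicate 1, 1322 without its replicate 3 and 1713 without shNTC+Dox replicate 1). The 14 genes of the related lists that passed became 8 to 18, with 9 without shEHD1+Dox replicate 1 and 8 without its replicate 3. Counts of the other peptide receptors that passed ran from 0 to 4 and those of the signaling genes from 2 to 6 over the alternatives. The cause of these changes was not tested. NPY5R, DPP4 and CCK rest on few counts, which limits what could be seen of them.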
